A study of Mus musculus with 16 samples.

Results

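The replication-dependent histone genes were taken as every gene of the deposited table whose symbol begins with Hist1h, Hist2h, Hist3h or Hist4h. There were 68 of these among 20325 genes, of which 6 encode linker histone H1, 18 encode H2A, 19 H2B, 12 H3 and 13 H4. By the cluster in the symbol, 54 belonged to Hist1 on chromosome 13, 10 to Hist2 on chromosome 3, 3 to Hist3 on chromosome 11 and 1 to Hist4 on chromosome 6. They were measured in C3H10T1/2 cells, a mouse line of mesenchymal type that is widely used as a model of mesenchymal progenitors, by sequencing of RNA enriched for polyadenylated messages. All cells carried a lentiviral histone H3 transgene, wild-type controls included, and had been transduced for 2 days and kept in puromycin at 1.5 µg/ml for 4 days. The 8 groups of 2 libraries expressed H3.3 WT, H3.3 G34W, H3.3 G34R, H3.3 K27R, H3.3 G34W K27R, H3.3 G34W K36R, H3.1 WT or H3.1 G34W, where each change names the residue replaced, its position and the new residue. The promoter of the transgene and the number of clones behind each group are not given in the sources used here, and the endogenous H3 genes were still present. In each group the listed change is carried by the transgene only.

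Replication-dependent histone genes supply the histones that package newly made DNA, and cells make their messages mainly during S phase. Unlike other messages, most of these end in a conserved stem-loop in place of a poly(A) tail, the stem-loop binding protein Slbp holds that structure, and the U7 snRNP cuts the RNA just after it. Some members also yield polyadenylated messages by using a poly(A) site past the stem-loop, and such forms are known from differentiating or arrested cells. RNA enriched by its poly(A) tail therefore shows mostly this second kind of message, and the values below are not a measure of total histone mRNA.

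GENCODE M21 matched 67 of the 68 members by symbol. The stem-loop was looked for along a single transcript of each, the longest protein-coding one where there was one. The last match in it was taken. A stem-loop was found in 44 members, in 8 forms of its letters, of which the commonest was in 24 members. In 22 members the searched transcript ran at least 100 bases past the stem-loop (108 to 4884 bases), and in the other 22 it ended sooner. In 23 members no stem-loop was matched. Some of their transcripts are short, at 312 bases in Hist1h4k and 411 in Hist1h3h, and may be annotated without their 3′ end. No match is therefore not read as a missing stem-loop. The sequences of 6 members that the results turn on are shown with 5 bases on each side, in capitals for the stem-loop and in the DNA letters of the annotation.
Hist1h1c: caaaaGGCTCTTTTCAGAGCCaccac
Hist1h2ao: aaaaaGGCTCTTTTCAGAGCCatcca
Hist1h2bk: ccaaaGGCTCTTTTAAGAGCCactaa
Hist1h3d: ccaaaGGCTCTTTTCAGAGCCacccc
Hist1h4h: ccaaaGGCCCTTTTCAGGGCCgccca
Hist1h4i: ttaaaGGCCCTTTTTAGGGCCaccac
The annotated transcript went on for 840 bases past the stem-loop in Hist1h1c, 752 in Hist1h3d and 330 in Hist1h4i. It went on for 46 bases in Hist1h4h, 31 in Hist1h2ao and 30 in Hist1h2bk. The H1, H2A, H2B and H3 stem-loops shown open with GGCTCT and both of the H4 genes with GGCCCT.

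Promoter windows of 250 bases before to 50 after the start, from RefSeq on GRCm38.p6, were at hand for 61 members. A member counts as having a motif if any of its windows holds it, while the shares of all genes are over single windows. The octamer ATTTGCAT, searched on both strands like the other motifs, was in 7 of 16 H2B members (43.8%) and 7 of 18 H2A members (38.9%). It was in none of the H1, H3 and H4 members, and in 1.7% of 32851 windows of all genes. The H1 box AAACACA was in 5 of 6 H1 members against 7.2% of all windows. CCAAT was in every H1, H2A, H2B and H3 member and in 3 of 12 H4 members, against 37.4% of all windows. TATAAA was in 44.4% to 66.7% of the members by class against 13.6% of all windows. No motif's letters contain another's, and on the opposite strand CCAAT reads ATTGG and TATAAA reads TTTATA. A match is a description of the letters and not of a bound factor. The windows of 3 members with opposite or shared changes are shown, with the motifs in capitals. They hold an H1 box and a CCAAT box in Hist1h1c, an octamer, a TATA box and CCAAT boxes in Hist1h2bk, and CCAAT boxes alone in Hist1h2ao.
Hist1h1c, chr13:23738557-23738856, plus strand: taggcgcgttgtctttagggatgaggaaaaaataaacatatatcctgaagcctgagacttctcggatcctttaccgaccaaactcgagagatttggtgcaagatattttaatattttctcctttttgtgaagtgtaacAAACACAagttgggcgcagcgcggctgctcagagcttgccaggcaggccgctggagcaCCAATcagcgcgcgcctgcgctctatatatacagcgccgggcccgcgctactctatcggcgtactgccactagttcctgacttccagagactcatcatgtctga
Hist1h2bk, chr13:22035571-22035870, plus strand: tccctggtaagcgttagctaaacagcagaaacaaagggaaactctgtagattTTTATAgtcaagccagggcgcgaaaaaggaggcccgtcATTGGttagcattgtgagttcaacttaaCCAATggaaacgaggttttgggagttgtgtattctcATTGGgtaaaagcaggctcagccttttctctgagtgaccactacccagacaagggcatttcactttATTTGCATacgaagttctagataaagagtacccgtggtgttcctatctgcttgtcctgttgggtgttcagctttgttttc
Hist1h2ao, chr13:21810117-21810416, plus strand: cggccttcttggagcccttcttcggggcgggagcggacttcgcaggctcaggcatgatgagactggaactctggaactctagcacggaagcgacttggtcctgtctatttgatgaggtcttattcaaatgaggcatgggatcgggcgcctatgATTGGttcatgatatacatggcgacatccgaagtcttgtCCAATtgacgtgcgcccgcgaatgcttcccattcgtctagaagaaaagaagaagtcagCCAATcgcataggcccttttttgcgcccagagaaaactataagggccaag

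A limit of the counting applies to nearly every member. The longest run of bases that a member's transcripts shared with another member was 27 to 1603 bases, with a median of 236, and it was at least 100 bases in 57 of 67 members. The values were accordingly fractional. Among the tested members, Hist1h1a and Hist1h1b, 2 linker histone genes, had whole reads (within 0.01 of a read) in all 16 libraries, and no H2A, H2B, H3 or H4 member did. Hist1h2bq and Hist1h2br, 2 H2B genes, had identical values in all 16 libraries and are 1 measurement listed under 2 names. Both names are counted in the numbers of members, the medians and the H2B sums below. Whether reads of the H3 transgene were counted under the H3 members, or under the H3.3 genes H3f3a and H3f3b, was not tested. A value can thus belong in part to a near-identical copy, and the sum of a class is less exposed to this than a single member. Class sums are not free of it, because Hist1h1e of H1 and Hist1h2be of H2B share a run of 450 bases.

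The 49 members whose values averaged 10 or more were tested, 5 of H1, 12 of H2A, 11 of H2B, 11 of H3 and 10 of H4. The other 19 stayed at or under 35 in every library, and 16 of them were at 0 in some library. Among them were the testis genes Hist1h1t (0 to 13.1) and Hist1h2aa (0 to 3.19). All values are in the deposited unit, a normalised read count, and levels are not compared between genes because they are not per length. Fold changes are differences of log2(value + 1) with the standard error of a limma fit over all 12670 tested genes, and a change is called at a Benjamini-Hochberg adjusted p under 0.05. Means carry an SD over 2 libraries. The H3.3 WT libraries were so close that they count as 1 sample, with a mean and no SD.

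Estimated depth was 26020000 to 49120000 reads per library. It was 34780000 reads or more in the 6 libraries of H3.3 G34W K36R, H3.1 WT and H3.1 G34W and 33820000 reads or less in the other 10, so that depth and these transgenes cannot be told apart. Nothing in the labels ties the libraries to separate cultures. The p-values thus reflect only how these libraries vary, which can be technical. The libraries of a group lay close together in 5 groups and far apart in H3.3 G34W, H3.1 WT and H3.1 G34W. Over the 49 tested members the median absolute log2 difference between the libraries of a group was 0.13 to 0.28 in the first 5 groups, and 1.41 in H3.3 G34W, 0.77 in H3.1 WT and 0.79 in H3.1 G34W. By this measure H3.1 G34W replicate 1 lay nearest to H3.1 WT replicate 1 (0.44), H3.1 G34W replicate 2 to H3.3 G34W K36R replicate 2 (0.44) and H3.3 G34W replicate 1 to H3.3 G34R replicate 2 (0.34). Summed over lists of markers of other cell types, epithelial genes reached 22.2 to 305, haematopoietic genes 28.5 to 71.0 and male germ line genes 15.5 to 47.9, against 470290 to 934670 for mesenchymal genes. The endothelial list reached 63.5 to 3113, nearly all of it Tek, and differed between groups as given beside the comparisons. Epcam was at 0 in 13 libraries and at most 1.21 in the others. In bulk RNA, fewer cells of a kind and less RNA per cell cannot be told apart.

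A difference among the 8 groups was called in 37 of the 49 tested members (limma moderated F test), against 66.6% of all genes tested. The called members were 5 of 5 in H1, 7 of 12 in H2A, 10 of 11 in H2B, 9 of 11 in H3 and 6 of 10 in H4. The largest F statistic among the members belonged to Hist1h2ao, an H2A gene, at 174. The plot of all tested members by library shows the pattern: most rows are lower in the 6 libraries on the right, and a few H2A, H2B and H3 rows are higher there.

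**Figure D1:**
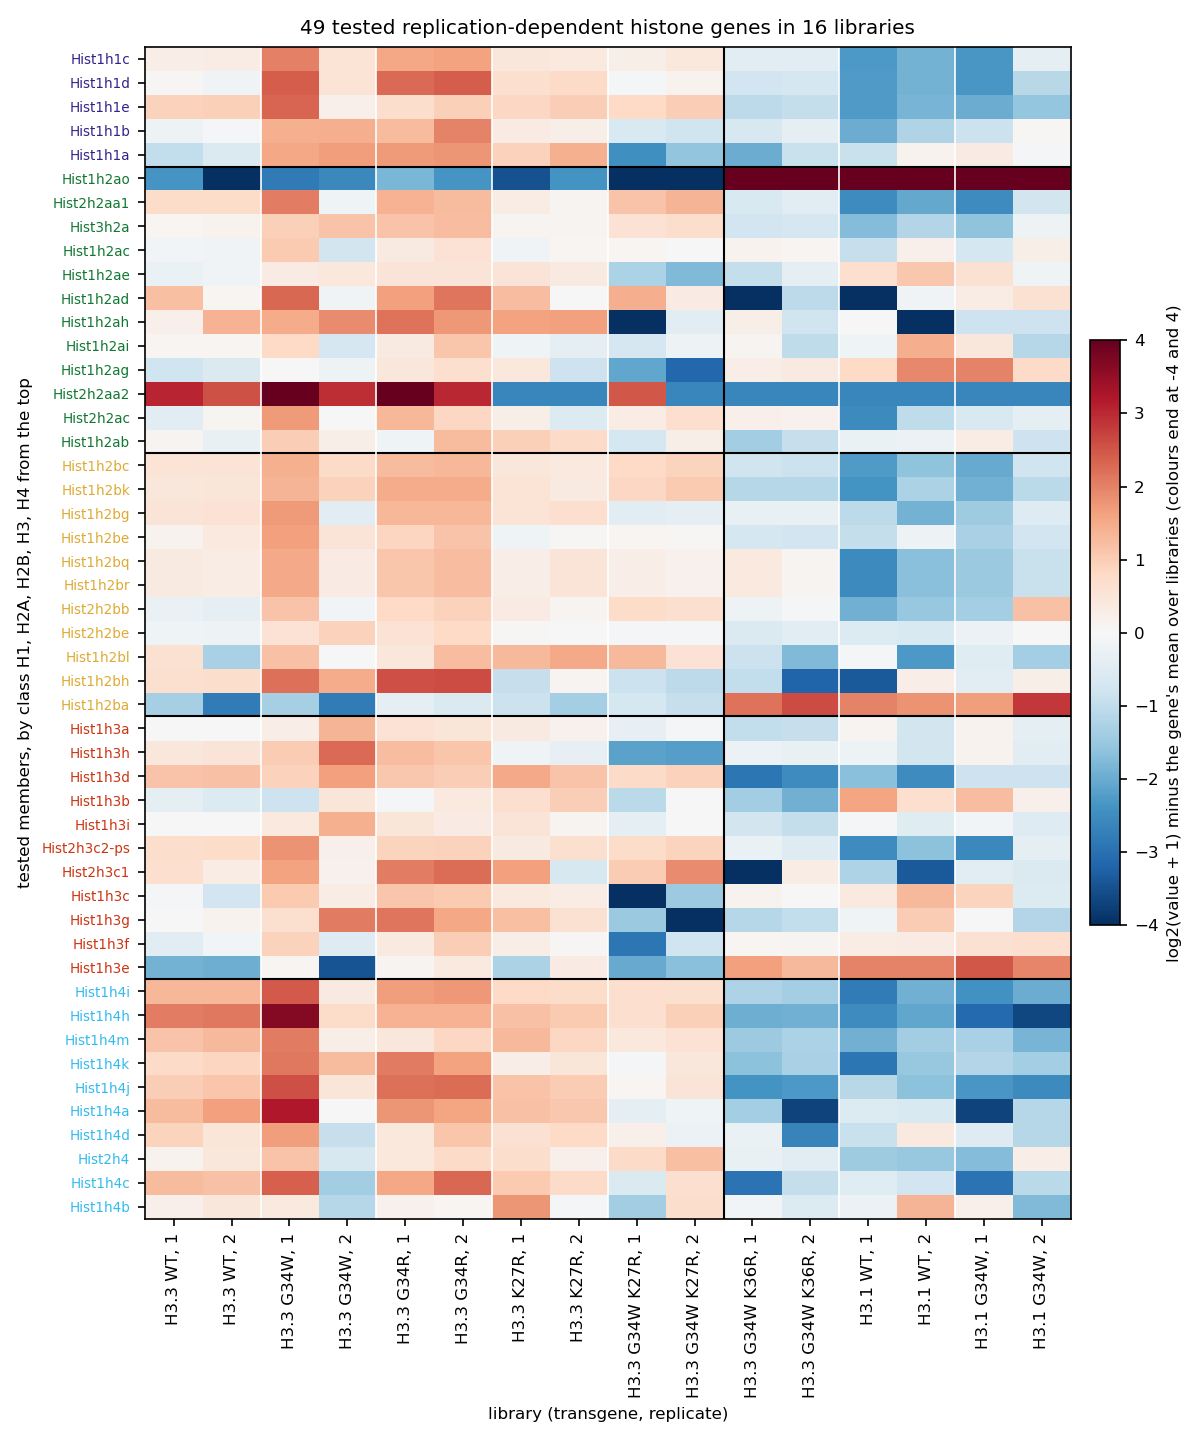
Each row is 1 of the 49 tested members, grouped by class from H1 at the top to H4 at the bottom and ordered by mean value within a class, and each column is 1 of the 16 libraries. Colour gives log2(value + 1) minus the gene's mean over the libraries, and the black vertical line sets off H3.3 G34W K36R, H3.1 WT and H3.1 G34W on the right, where Hist1h2ao is high and most other rows are low.

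The class sums per library give the size of this. The summed value of the 6 H1 genes was 1184 and 1571 in H3.1 WT, 1196 and 4345 in H3.1 G34W, and 4175 and 4163 in H3.3 G34W K36R. It was 6861 to 23666 in the 10 libraries of the other groups, so the ranges did not overlap. For H2B the sums were 1087 to 2794 in those 6 libraries and 6117 to 12181 in the other 10, and for H4 they were 214 to 448 and 1482 to 6671. Again no library crossed between the ranges. H3 sums of 7078 to 15073 and 11071 to 39586 did overlap. H2A sums overlapped too, at 5195 to 12707 in the 6 libraries and 2446 to 6491 in the other 10, where H3.3 G34W replicate 1 was the highest. Hist1h2ao made most of the H2A sum in the 6, and without it the H2A sums were 810 to 1780 against 2418 to 6470, with no overlap. Hist1h2ao was set aside after its values were seen, and Hist1h2ag shares a run of 362 bases with it. How reads were divided between Hist1h2ao and other H2A genes was not tested. The sum without it is therefore not a result of its own. This grouping of the libraries was chosen after their values and depths were seen.

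**Figure D2:**
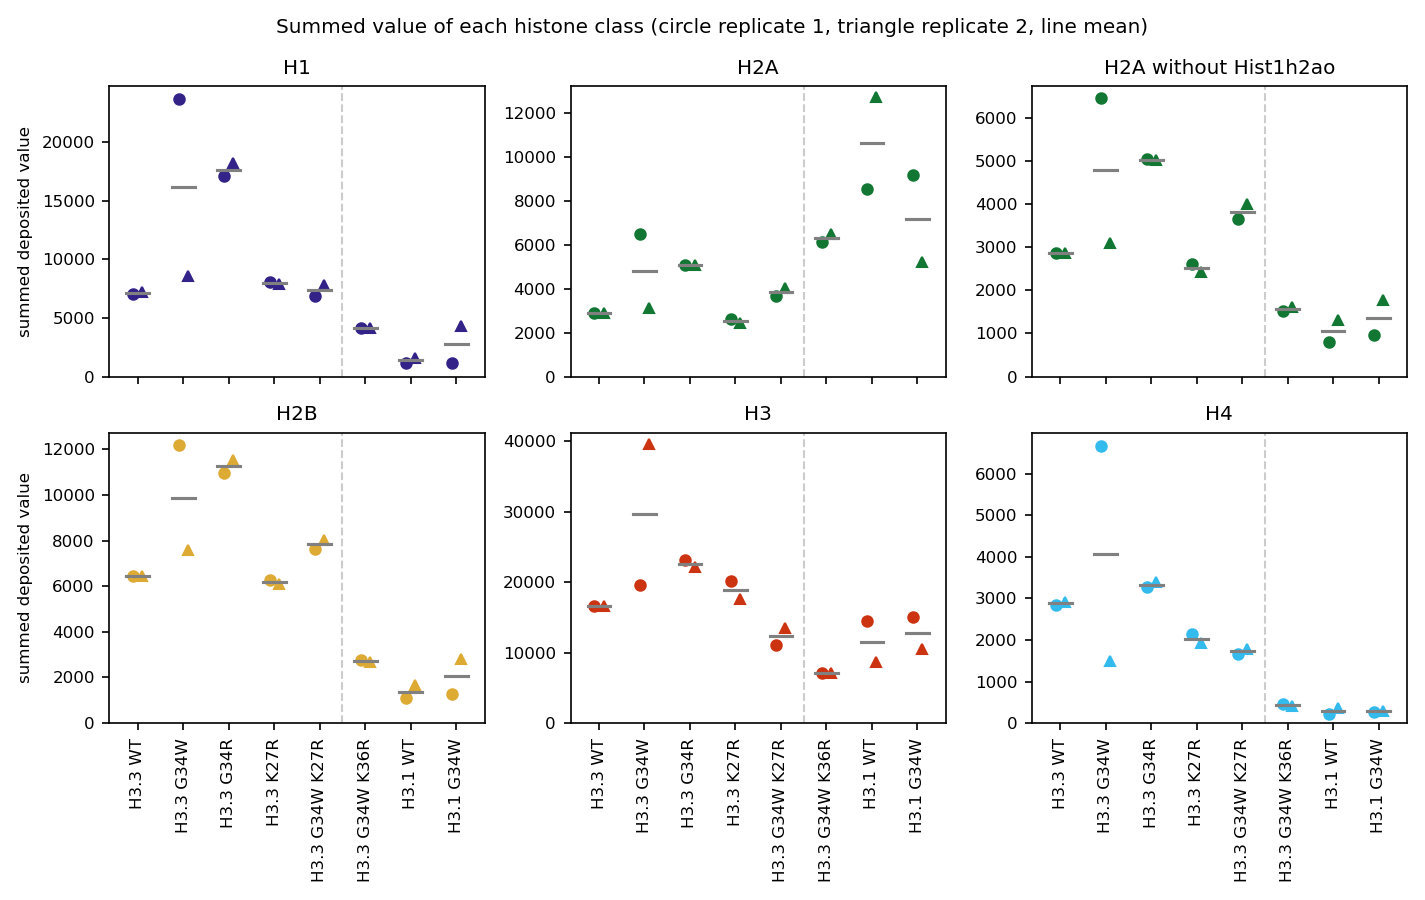
Summed deposited value of each histone class in every library, by transgene, with an axis from 0 in each panel; circles are replicate 1, triangles replicate 2 and grey lines their mean. The panels for H1, H2B, H4 and H2A without Hist1h2ao are low right of the dashed line (H4 at 214 to 448 against 1482 to 6671), and the H2A panel with Hist1h2ao is not.

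Hist1h1c of H1, Hist1h2bc of H2B, Hist1h4i of H4 and Hist3h2a of H2A were lower in the 6 libraries than in the other 10. The order of the other groups differed among these genes. Some other members overlapped between the 6 and the 10. The H2A gene Hist1h2ac was at 148 to 331 in the 6 and 168 to 584 in the 10. The H2B gene Hist1h2bg was at 41.2 to 126 and 112.7 to 507. Hist1h1c was lowest in H3.1 WT (1101 and 1453) and H3.1 G34W (1091 and 4159), then in H3.3 G34W K36R (3968 and 3939). It was at 6406 to 7478 in H3.3 K27R, H3.3 WT and H3.3 G34W K27R, where the last overlapped with both others, and highest in H3.3 G34R (15752 and 16696) and H3.3 G34W replicate 1 (21766). Hist1h2bc was at 714 and 1123 in H3.1 WT, 845 and 1980 in H3.1 G34W and 1961 and 1889 in H3.3 G34W K36R, and at 4559 to 9143 in the other 10 libraries. The H4 gene Hist1h4i was at 103 to 304 in the 6 and at 916 to 3968 in the 10, and the H2A gene Hist3h2a at 247 to 722 and 873 to 1947.

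The H3 members varied as well. Hist1h3d was at 572 and 323 in H3.1 WT, 1032 and 1026 in H3.1 G34W and 248 and 322 in H3.3 G34W K36R, and at 3108 to 5711 in the other 10 libraries. Hist1h3a was lowest in H3.3 G34W K36R (3576 and 3776) but was at 7652 and 4235 in H3.1 WT and 7844 and 5523 in H3.1 G34W, within reach of H3.3 WT (7012 and 6959). It was highest in H3.3 G34W replicate 2, at 18262. The H3 genes thus differed among themselves in which groups were low.

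Member by member, 16 of the 49 were lower in all 6 of these libraries than in any of the other 10, and 3 were higher in all 6. Over all genes tested these shares were 9.42% and 9.34%. The 3 higher members were Hist1h2ao, Hist1h2ba and Hist1h3e.

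H3.3 G34W, a change found in giant cell tumour of bone, was compared with H3.3 WT. No member was called in either direction, against 1.18% of all genes called, and 6 members had an unadjusted p under 0.05. The median log2 fold change of the 49 members was 0.57 against 0.002 over all genes, with 43 members above 0 and 6 below. It was 0.14 without H3.3 G34W replicate 1 and 1.16 without replicate 2. By class the medians were 1.51 in H1, 0.58 in H2A, 0.62 in H2B, 0.46 in H3 and 0.01 in H4. In 21 members both H3.3 G34W libraries were above both H3.3 WT libraries (27.6% of all genes were), and in 0 both were below (27% of all genes).

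The H3.3 G34W libraries disagreed on which members were high. Hist1h1c, the best measured linker histone gene, was at 6515 and 6731 in H3.3 WT and at 21766 and 8015 in H3.3 G34W replicates 1 and 2. Hist1h4h, an H4 gene, was at 467 and 479 in H3.3 WT and at 1440 and 185 in H3.3 G34W. Hist1h3a, which encodes H3.1, was at 7012 and 6959 in H3.3 WT and at 8462 and 18262 in H3.3 G34W. Replicate 1 was thus the higher library for Hist1h1c and Hist1h4h and replicate 2 for Hist1h3a, and Hist1h4h lay on both sides of the H3.3 WT values. Without H3.3 G34W replicate 1, 1 member was called higher than in H3.3 WT, Hist1h3h (log2 fold change 1.78, limma adjusted p = 0.0194), with 2.61% of all genes called. Without replicate 2, 4 others were called higher: Hist1h1d (2.45), Hist1h1e (1.39), Hist1h4h (1.61) and Hist1h4j (1.53). That is 8.16% of the members, with 12% of all genes called.

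The H1 genes with whole reads were alike in both H3.3 G34W libraries. Hist1h1a was at 4.84 and 6.78 in H3.3 WT and at 32.8 and 36.1 in H3.3 G34W. Hist1h1b was at 28.1 and 32.0 in H3.3 WT and at 89.2 and 90.8 in H3.3 G34W. Neither gene overlapped between the groups, with log2 fold changes of 2.38 ± 0.64 and 1.55 ± 0.49, and neither passed the threshold (adjusted p = 0.118 and 0.188). Both were called with the H3.3 WT libraries counted as 2 samples (adjusted p = 0.016 and 0.0315), together with the H2B gene Hist2h2be, which is 6.12% of the members where 7.55% of all genes were called.

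H3.3 G34R, a change at the same residue that is known from brain tumours, was compared with H3.3 WT in the same way. No member was called against H3.3 WT, where 2.72% of all genes were called, and 6 had an unadjusted p under 0.05. The median log2 fold change was 0.87 against -0.009 over all genes, and it was 1.76 in H1, 0.98 in H2A, 0.88 in H2B, 0.68 in H3 and 0.24 in H4. Both libraries were above both H3.3 WT libraries in 37 of 49 members (41.5% of all genes) and below in 4 (43.1% of all genes). Hist1h1c was at 15752 and 16696, Hist1h1d at 979 and 1089 against 210 and 183 in H3.3 WT, and the H2B gene Hist1h2bk at 1469 and 1487 against 719 and 737. These libraries did not overlap with H3.3 WT, and the log2 fold changes were 1.29 ± 0.68, 2.39 ± 0.65 and 1.02 ± 0.43 (adjusted p = 0.421, 0.0912 and 0.301). The standard errors come from the spread shared by all groups, which is wider than that within these pairs. With only these groups in the fit 35 members were called (71.4%), 32 higher and 3 lower, where 60.7% of all genes were called. With H3.3 WT counted as 2 samples 4 were called (8.16%), under the 10.4% of all genes. Without H3.3 G34W replicate 1 or 2, H3.1 G34W replicate 1 or 2, or H3.1 WT replicate 1, the count was 1 or 2, with 4.74% to 7.79% of all genes called.

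H3.3 K27R, in which lysine 27, a residue that is methylated by PRC2 in chromatin, is replaced, showed little shift against H3.3 WT. No member was called, against 2.75% of all genes, and 2 had an unadjusted p under 0.05, Hist1h1a and Hist2h2aa2. The median log2 fold change was 0.08 against -0.012 over all genes, with 30 members above 0 and 19 below. Both libraries were above H3.3 WT in 17 members (40.3% of all genes) and below in 13 (42.5% of all genes). Hist1h1c was at 7478 and 7192 and the H2B gene Hist1h2bc at 4705 and 4559, against 5023 and 5016 in H3.3 WT. With only these groups in the fit 16 members were called (32.7%), 11 higher and 5 lower, and with H3.3 WT counted as 2 samples 2 were called (4.08%). Both shares lay under those of all genes, 55.4% and 8.87%. Without H3.3 G34W K27R replicate 1 or 2 the count was 1, with 1.84% of all genes called.

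The gene lists were set beside these 3 comparisons. Of the 32 S phase genes 0 were called in H3.3 G34W, H3.3 G34R or H3.3 K27R against H3.3 WT, with medians of -0.51, -0.49 and -0.09. The summed S phase values were 122150 and 121640 in H3.3 WT and 65406 and 124660 in H3.3 G34W, so that of these 4 libraries H3.3 G34W replicate 1 was the low one. They were 93757 and 95051 in H3.3 G34R and 114780 and 115270 in H3.3 K27R. Among the CDK inhibitors Cdkn2a was at 0.484 in H3.3 WT and at 38.5 ± 1.29, 141 ± 2.38 and 92.3 ± 31.8 in the 3 groups, and Cdkn2b was at 0 and at 53.4 ± 12.1, 165 ± 5.25 and 140.1 ± 7.81, both called higher in each. Of the replication-independent histones H3f3b, which encodes H3.3, was called higher in H3.3 G34R alone (1.07 ± 0.19, adjusted p = 0.0174), and none of the 20 histone mRNA genes was called. The part of transgene reads in the H3f3b values was not tested. The log2 fold changes of Slbp were -0.42 ± 0.36, -0.33 ± 0.36 and -0.41 ± 0.36. The endothelial markers had medians of 1.77, 1.23 and 0.73, with 0 of 2 tested called, and their part in the histone values was not tested. These 3 comparisons share the H3.3 WT libraries, so their values stand side by side and are not independent of each other.

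Hist2h2aa1 and Hist2h2aa2, H2A genes that share a run of 528 bases, were read together. Hist2h2aa2 was at 49.6 and 35.1 in H3.3 WT and listed at 0 in 9 libraries, both H3.3 K27R libraries among them. The sum of both genes was 809 to 3748 in the 10 shallower libraries and 147 to 619 in the 6 deeper ones. How reads were divided between these copies was not tested. Hist2h2aa2 stays in the counts of called members below, where its calls rest on its zeros. No fold is given for it alone.

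**Figure D3:**
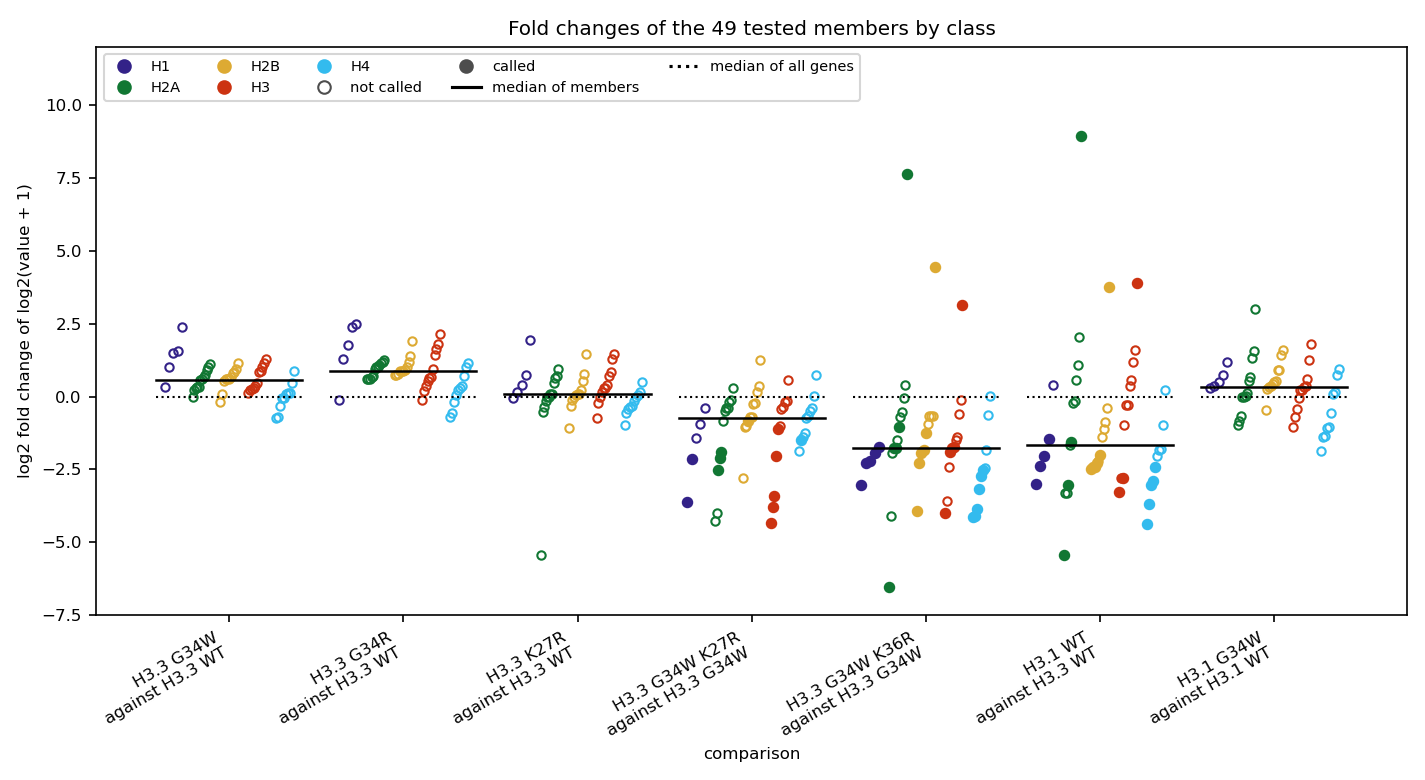
Log2 fold change of each of the 49 tested members in 7 comparisons, coloured by histone class, with filled points for members called (adjusted p under 0.05); solid lines are the members' median and dotted lines the median of all 12670 genes. Filled points occur in 3 comparisons, where the members' medians are -0.75, -1.76 and -1.65, and the 3 filled points above 0 are the same genes in both comparisons that have them.

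H3.3 G34W K27R was compared with H3.3 G34W to see what the change at lysine 27 on the same tail adds. All 4 libraries were among the shallower 10. Called lower were 12 members, with 12.4% of all genes called lower, and called higher were 0, with 9.24% of all genes. The members called were 2 of 5 in H1, 3 of 12 in H2A, 1 of 11 in H2B, 5 of 11 in H3 and 1 of 10 in H4, and their log2 fold changes ran from -4.34 to -0.84. The median of all 49 members was -0.75 against -0.02 over all genes.

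Hist1h3h, which encodes H3.1, was at 4560 and 10956 in H3.3 G34W and at 515 and 497 in H3.3 G34W K27R. The latter were the lowest values of the 16 libraries, where the next was 1352. The log2 fold change was -3.80 ± 0.35 (adjusted p = 4.25e-05), from 7758 ± 4522 to 506 ± 12.6. Hist1h3g, another H3.1 gene, was at 33.6 and 91.1 in H3.3 G34W and at 6.80 and 0 in the double mutant (log2 fold change -4.34 ± 0.88, adjusted p = 0.00595). The 0 is under the value of 3 reads in that library (2.92), so the size of this change is uncertain. The H3.1 gene Hist1h3i was at 1299 and 2651 and then at 753 and 977, a change of -1.11 ± 0.31 (adjusted p = 0.0283). The H3.1 gene with the most reads, Hist1h3a, was at 5629 and 6772 in the double mutant, and its change of -1.01 ± 0.35 was not called (adjusted p = 0.069).

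Linker histone genes with whole reads fell too. Hist1h1a was at 32.8 and 36.1 in H3.3 G34W and at 1.11 and 2.92 in the double mutant (-3.62 ± 0.52, adjusted p = 0.00075). Hist1h1b was at 89.2 and 90.8 and then at 21.1 and 18.5 (-2.13 ± 0.40, adjusted p = 0.00395). The remaining called members were Hist1h2ae, Hist1h2ag and Hist1h2ao of H2A, Hist2h2be of H2B, Hist1h3c and Hist1h3f of H3 and Hist1h4k of H4. Hist1h3c, an H3.2 gene, was at 60.8 and 35.4 in H3.3 G34W and at 0.798 and 9.97 in the double mutant (-3.42 ± 0.76, adjusted p = 0.00937). Hist1h2ag was at 26.4 and 23.1 in H3.3 G34W and at 5.52 and 2.12 in the double mutant (-2.51 ± 0.58, adjusted p = 0.0122). In all of these the groups did not overlap. In the double mutant, Hist1h1a in both libraries, Hist1h3c in replicate 1 and Hist1h2ag in replicate 2 lay at or under the value of 3 reads (3.33 and 2.92). The sizes of their changes are thus uncertain. The best measured members outside H3 were not called: Hist1h1c was at 6406 and 7310 in the double mutant (-0.95 ± 0.55), Hist1h2bc at 6036 and 6318 (-0.25 ± 0.35) and Hist1h4i at 1142 and 1125 (-0.75 ± 0.53). The H3.3 G34W libraries were both above these values in Hist1h1c, at 21766 and 8015, and on both sides of them in Hist1h4i, at 3968 and 916.

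The count in this comparison rested partly on single libraries. Counts here are of calls either way unless marked lower. Those without H3.3 G34W replicate 1 include Hist1h2ba, a member of few reads, which was higher (log2 fold change 1.98). Without H3.3 G34W replicate 2, 23 members were called lower (46.9%, with 26.1% of all genes called either way) and the median was -1.59. Without H3.3 G34W replicate 1 the median was -0.20 and 12 were called (24.5%, against 26.3% of all genes). Without H3.3 G34W K27R replicate 1, 7 were called (14.3%, against 10.3% of all genes). When the libraries of the 5 close groups were averaged to 1 sample each, only Hist1h3h was called (-3.80, adjusted p = 0.0162), with 2.74% of all genes called.

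S phase genes were lower in the same comparison. Of 32 genes for the replication fork, nucleotide supply and S phase cyclins, 24 were lower in H3.3 G34W K27R than in H3.3 G34W and 0 higher, with a median of -1.54. Ccna2, which encodes cyclin A, was at 5056 ± 2580 in H3.3 G34W and 318 ± 12.2 in the double mutant (-3.89 ± 0.41, adjusted p = 0.000106). Tk1, the thymidine kinase gene, was at 4928 ± 2120 and 333 ± 5.78 (-3.81 ± 0.46, adjusted p = 0.000242). The CDK inhibitor genes Cdkn2a and Cdkn2b were higher, Cdkn2a at 442 ± 20.9 against 38.5 ± 1.29 and Cdkn2b at 778 ± 26.9 against 53.4 ± 12.1, and Cdkn2c and Cdkn2d were lower. Cdkn1a was higher too (0.67 ± 0.21, adjusted p = 0.0455). Among 11 replication-independent histone genes, 5 were lower and 0 higher: Cenpa, the centromeric H3 (-3.96 ± 0.33), H2afz (-1.95 ± 0.28), H2afx (-1.88 ± 0.29), H3f3b (-0.78 ± 0.16) and H2afv (-0.68 ± 0.19). Slbp was at 2287 ± 521 in H3.3 G34W and 1564 ± 64.0 in the double mutant and was not called (-0.53 ± 0.29). Of 20 genes for histone mRNA synthesis and 3′ end processing 2 were called, both lower, the exonuclease gene Eri1 (-0.79 ± 0.20) and Zfp473 (-2.02 ± 0.50), and of 14 cleavage and polyadenylation genes 2, both higher, Cpsf4 (0.71 ± 0.19) and Fip1l1 (0.45 ± 0.14). Neither the part of cell cycle phase in the histone values nor that of transgene reads in H3f3b was tested.

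H3.3 G34W K36R was compared with H3.3 G34W to see what the change at lysine 36, a residue that carries methylation in transcribed chromatin, adds. Called lower were 24 members (16.2% of all genes) and called higher 3 (14.4% of all genes). The lower members were 5 of 5 in H1, 4 of 12 in H2A, 5 of 11 in H2B, 4 of 11 in H3 and 6 of 10 in H4. The median of the 49 members was -1.76 against -0.026 over all genes. By class it was -2.21 in H1, -1.26 in H2A, -1.26 in H2B, -1.74 in H3 and -2.62 in H4.

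Hist1h3d, which encodes H3.2, was at 3490 and 5711 in H3.3 G34W and at 248 and 322 in H3.3 G34W K36R. The groups did not overlap, and the log2 fold change was -3.98 ± 0.29 (adjusted p = 1.39e-05). Hist1h4h was at 1440 and 185 and then at 28.0 and 28.9 (-4.14 ± 0.70, adjusted p = 0.00215), and Hist1h4i at 3968 and 916 and then at 304 and 279 (-2.71 ± 0.53, adjusted p = 0.00435). Both H4 genes were lower in the double mutant than in either H3.3 G34W library, despite the distance between those. Hist1h4j was at 138 and 31.8 and then at 3.46 and 3.74 (-3.87 ± 0.56, adjusted p = 0.000935), Hist1h4a at 119 and 11.8 and then at 4.15 and 0 (-4.11 ± 1.10, adjusted p = 0.0186), and the H2B gene Hist1h2bh at 45.7 and 27.7 and then at 4.15 and 0.123 (-3.93 ± 1.05, adjusted p = 0.0184). In replicate 2 of the double mutant, Hist1h4a and Hist1h2bh lay under the value of 3 reads (2.65), so the sizes of their changes are uncertain. Hist2h2aa2 was listed at 0 in both double mutant libraries and at 186 and 46.2 in H3.3 G34W, and it is among the 24 called lower (adjusted p = 0.00509). No fold is given for it because of the reads it shares with Hist2h2aa1.

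Among the best measured members, Hist1h2bc was at 9143 and 5860 in H3.3 G34W and at 1961 and 1889 in the double mutant (-1.93 ± 0.35, adjusted p = 0.00321). Hist1h2bk was at 1372 and 1007 and then at 242 and 240 (-2.28 ± 0.35, adjusted p = 0.00134). Hist1h1c was at 21766 and 8015 and then at 3968 and 3939 (-1.74 ± 0.55, adjusted p = 0.0373). None of these groups overlapped. Hist1h1d (-2.21 ± 0.53), Hist1h3a (-1.76 ± 0.35), Hist1h3h (-1.89 ± 0.35), Hist1h3i (-1.74 ± 0.31) and the H2A gene Hist3h2a (-1.75 ± 0.36) were also called, while Hist1h3b (-1.48 ± 0.52, adjusted p = 0.0548) and Hist2h2aa1 (-1.49 ± 0.66, adjusted p = 0.112) were not.

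The 3 members called higher were few and very different in size. Hist1h2ao was at 20.7 and 25.3 in H3.3 G34W and at 4571 and 4895 in H3.3 G34W K36R (log2 fold change 7.63 ± 0.47, adjusted p = 5.81e-06). Hist1h3e, an H3.2 gene, was at 10.5 and 0 and then at 33.02 and 26.2 (3.16 ± 0.93, adjusted p = 0.0276). The size of this change depends on the 0 in H3.3 G34W replicate 2. It was 4.93 without replicate 1, while the ratio of the group means was 5.64. Hist1h2ba, the testis H2B gene, was at 1.75 and 0 and then at 30.004 and 40.9, which is about 2 reads against 77, a ratio of 35.3 with a 95% counting interval of 9.46 to 297.1 (adjusted p = 0.000464). Of 5 male germ line markers 2 were tested and Sycp3 was higher (1.16 ± 0.39), Dazl and Tnp1 were at 0 in every library, and the summed list was 23.5 and 36.8 in H3.3 G34W and 47.9 and 44.0 in the double mutant. With the close pairs averaged, Hist1h2ao (adjusted p = 0.00646), Hist1h3d (0.0161) and Hist2h2aa2 (0.0424) were the members called, and with only these groups in the fit 9 were (18.4%, against 10.8% of all genes).

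Of the 32 S phase genes, Tk1 was the one called here, lower at 1586 ± 21.7 (-1.56 ± 0.46, adjusted p = 0.0277), and the median was -0.12. Of 6 CDK inhibitors tested 1 was higher, Cdkn1b (0.87 ± 0.25), and 2 lower, Cdkn2c (-1.01 ± 0.16) and Cdkn2d (-1.29 ± 0.24). Of 9 mesenchymal markers 3 were higher, Col1a1 (1.88 ± 0.50), Col1a2 (0.73 ± 0.22) and Prrx1 (1.32 ± 0.22). Replication-independent histones gave 3 lower of 11, namely H2afj (-1.41 ± 0.26), H2afv (-0.58 ± 0.19) and H2afy (-0.52 ± 0.17). Of the 20 histone mRNA genes 1 was called, Zcchc11, which adds uridines to RNA ends (0.86 ± 0.25, higher), and of the 14 cleavage and polyadenylation genes 1, the poly(A) polymerase gene Papolg (0.67 ± 0.18, higher). Of 4 endothelial markers 2 were tested, and Cdh5 and Tek were both lower (-5.69 ± 0.70 and -2.13 ± 0.60). The summed endothelial list was 880 and 3113 in H3.3 G34W and 395 and 333 in H3.3 G34W K36R, Pecam1 was at 9.39 or less in every library, and their part in the histone values was not tested.

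H3.1 WT was compared with H3.3 WT, which sets the replication-coupled H3 beside the variant made throughout the cell cycle. Called lower were 19 members (17% of all genes) and called higher 3 (16.3% of all genes). The lower members were 4 of 5 in H1, 3 of 12 in H2A, 5 of 11 in H2B, 2 of 11 in H3 (Hist1h3d and the pseudogene Hist2h3c2-ps) and 5 of 10 in H4. The 5 H2B members include Hist1h2bq and Hist1h2br, which are a single measurement. The median of the 49 members was -1.65 against -0.016 over all genes, and -0.54 after quantile normalization, under which 14 were called lower and 5 higher. The shares of all genes called each way under that setting are not given here. Those counts are thus not set against the whole table.

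Hist1h4i was at 1809 and 1804 in H3.3 WT and at 103 and 192 in H3.1 WT (-3.67 ± 0.65, adjusted p = 0.0024). Hist1h4h was at 467 and 479 and then at 18.7 and 25.6 (-4.37 ± 0.86, adjusted p = 0.0041). Hist1h4k was at 77.9 and 83.7 and then at 5.26 and 15.2 (-3.02 ± 0.57, adjusted p = 0.00322). The H4 genes thus lay well apart between the groups. Hist1h3d was at 4092 and 4139 in H3.3 WT and at 572 and 323 in H3.1 WT (-3.26 ± 0.35, adjusted p = 0.000158). Hist1h2bc was at 5023 and 5016 and then at 714 and 1123 (-2.48 ± 0.43, adjusted p = 0.00221), and Hist1h1c at 6515 and 6731 and then at 1101 and 1453 (-2.39 ± 0.68, adjusted p = 0.022). Hist2h2aa1 was at 1426 and 1417 and then at 148 and 206 (-3.02 ± 0.80, adjusted p = 0.017), and Hist2h2aa2, called lower (adjusted p = 0.0272), was listed at 0 in both H3.1 WT libraries, again with no fold given because of the shared reads. No value of H3.1 WT reached those of H3.3 WT in these genes.

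None of the H3.1 genes was called between these groups. Hist1h3a was at 7652 and 4235 in H3.1 WT (-0.30 ± 0.43, adjusted p = 0.627), above and below the H3.3 WT values. Hist1h3i was at 1013 and 1003 in H3.3 WT and at 951 and 712 in H3.1 WT (-0.29 ± 0.38, adjusted p = 0.58). Hist1h3h was at 3126 and 3251 and then at 1957 and 1352 (-0.97 ± 0.43, adjusted p = 0.104). These last 2 genes did not overlap between the groups, with H3.1 WT lower, and Hist1h3h had an unadjusted p under 0.05. The H3.2 gene Hist1h3b was at 798 and 722 in H3.3 WT and at 3156 and 1689 in H3.1 WT, a change of 1.60 ± 0.64 that was not called (adjusted p = 0.0783). Summed over Hist1h3a, Hist1h3g, Hist1h3h and Hist1h3i, the H3.1 genes were at 6342 to 11313 in the 4 libraries with an H3.1 transgene and at 6120 to 31960 in the 12 with an H3.3 transgene. The ranges overlapped, and the sums of the H3.2 genes did too, at 2167 to 3853 and 732 to 7316.

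Hist1h2ao, Hist1h2ba and Hist1h3e were again the members called higher. Hist1h2ao was at 29.5 and 6.38 in H3.3 WT and at 7704 and 11390 in H3.1 WT (8.95 ± 0.57, adjusted p = 9.54e-06). Hist1h3e was at 1.97 and 1.85 and then at 42.9 and 42.7 (3.91 ± 1.14, adjusted p = 0.0247). Hist1h2ba was at 1.76 and 0 and then at 26.1 and 23.2, about 2 reads against 58, a ratio of 25.6 with a 95% counting interval of 6.77 to 216.2 (adjusted p = 0.00307). Over all 16 libraries Hist1h2ao was at 3415 to 11390 in the 6 deeper libraries and at 3.46 to 43.4 in the other 10. Hist1h2ap, the H2A gene with which its transcript shares a run of 452 of 480 bases, was at 0 in 15 libraries and at 4.94 in the other. Hist1h2bq, the H2B gene whose promoter window overlaps that of Hist1h2ao on the opposite strand, cannot be told apart from Hist1h2br. Their shared value was 94.8 and 90.3 in H3.3 WT and 11.96 and 22.3 in H3.1 WT (-2.43 ± 0.51, adjusted p = 0.00571). It was 97.7 and 80.4 in H3.3 G34W K36R, where Hist1h2ao was also high, against 214.6 and 92.7 in H3.3 G34W, and was not called there (-0.67 ± 0.42, adjusted p = 0.25).

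**Figure D4:**
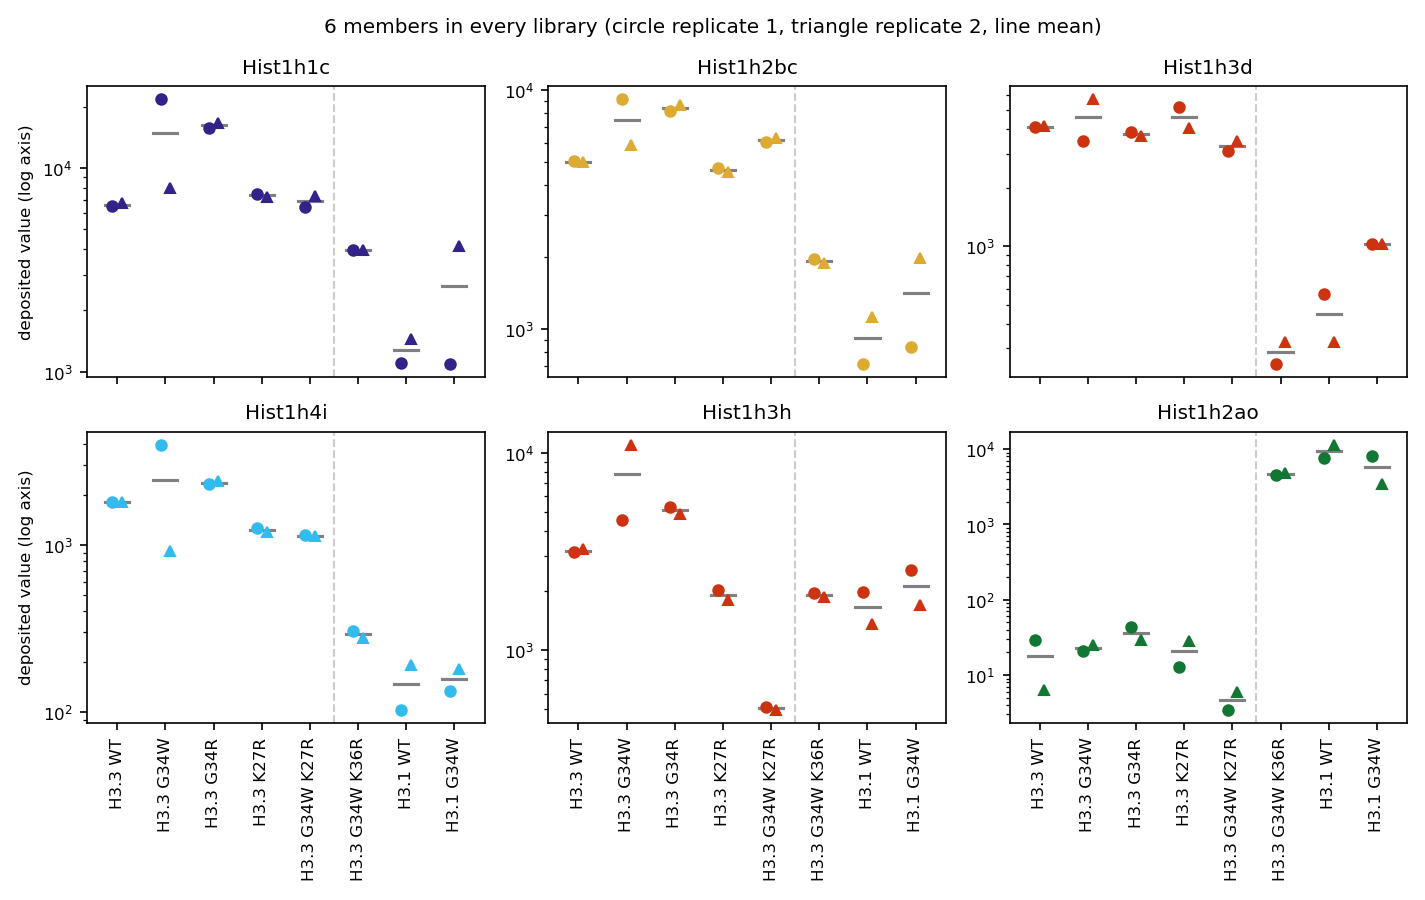
Deposited values of 6 members in every library on log axes, by transgene, with circles for replicate 1, triangles for replicate 2 and grey lines for the mean. Hist1h1c, Hist1h2bc, Hist1h3d and Hist1h4i are low right of the dashed line, Hist1h3h is lowest in H3.3 G34W K27R (515 and 497), and Hist1h2ao is at 3415 or more right of the line and at 43.4 or less left of it.

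The members called in H3.3 G34W K36R against H3.3 G34W and in H3.1 WT against H3.3 WT come from comparisons that share no library. The same 3 members were called higher in both. Called lower in both were 14, which is 58.3% of the 24 and 73.7% of the 19. Over all genes, 1118 were called lower in both, 54.4% and 51.8% of those called lower in each, and 1043 higher in both, 57.1% and 50.4%. The 14 members shared were 4 H1 genes (Hist1h1b, Hist1h1c, Hist1h1d and Hist1h1e), 5 H4 genes (Hist1h4h, Hist1h4i, Hist1h4j, Hist1h4k and Hist1h4m), the H2A genes Hist3h2a and Hist2h2aa2 (with the reads it shares with Hist2h2aa1), the H2B genes Hist1h2bc and Hist1h2bk, and Hist1h3d. Both comparisons set deeper libraries against shallower ones.

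S phase genes gave 0 calls of 32 in H3.1 WT, with a median of 0.55. Of 6 CDK inhibitors tested 2 were higher, Cdkn2a (2.04 ± 0.38) and Cdkn2b (2.06 ± 0.58), both at low levels of 5.10 ± 0.298 and 3.69 ± 3.07, and 2 lower, Cdkn1a (-1.22 ± 0.26) and Cdkn2c (-0.70 ± 0.19). Of 9 mesenchymal markers 2 were lower, Pdgfra (-2.62 ± 0.49) and Thy1 (-1.93 ± 0.59). Of the 20 histone mRNA genes 2 were called, Npat, the coactivator of histone gene transcription (0.79 ± 0.23, higher), and Sympk, the symplekin gene (-0.57 ± 0.19), and of the 14 cleavage and polyadenylation genes 2, Nudt21 (0.57 ± 0.20) and Pcf11 (0.82 ± 0.28), both higher. Of the 11 replication-independent histones 2 were lower, H2afy2 (-1.55 ± 0.19) and H2afv (-0.80 ± 0.24). Among the markers of other cell types, Tek and Cdh5 of the endothelial list (-3.40 ± 0.74 and -2.46 ± 0.86) and Ddx4 of the germ line list (-3.84 ± 0.75) were lower, and the endothelial sum was 831 and 807 in H3.3 WT and 106 and 63.5 in H3.1 WT. Their part in the histone values was not tested. With the close pairs averaged 5 members were called, Hist1h2ao, Hist1h2bc, Hist1h3d, Hist1h4i and Hist2h2aa2 (10.2%, against 4.9% of all genes), and with only these groups in the fit 14 (28.6%, against 10.5%).

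**Figure D5:**
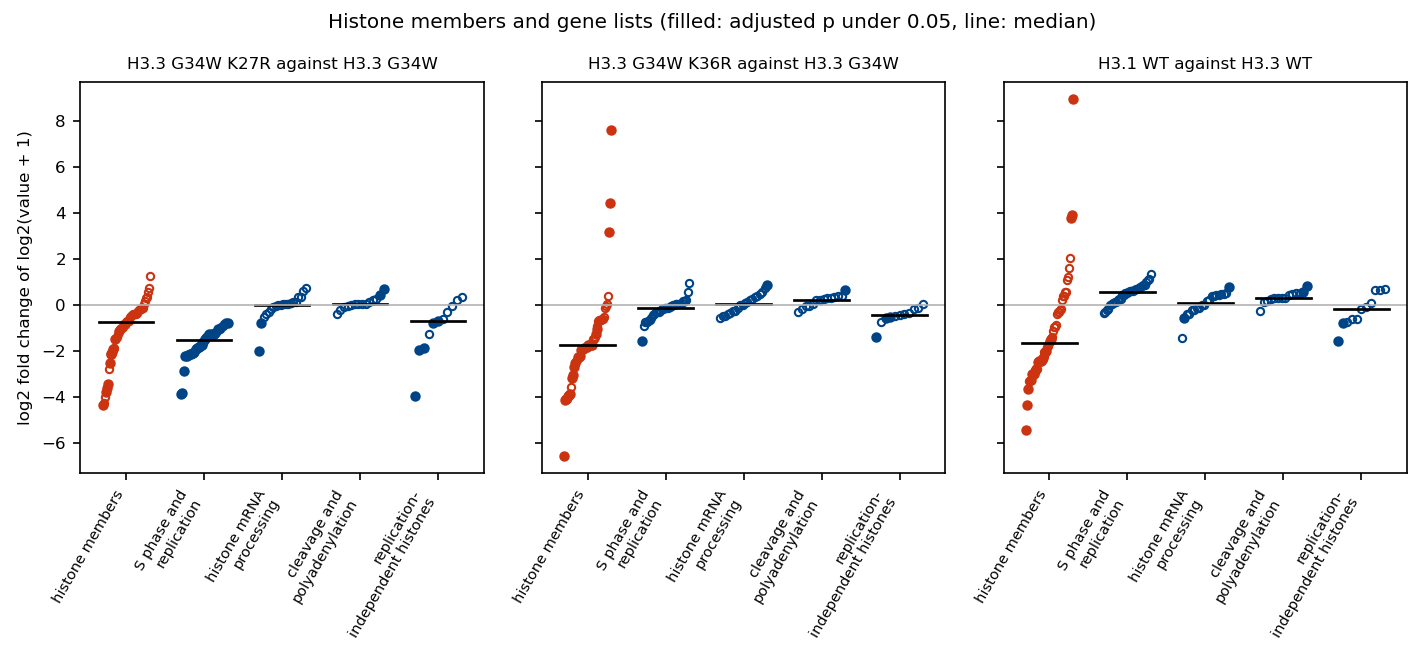
Log2 fold changes of the 49 tested members (red) and of 4 gene lists (blue) in the 3 comparisons with called members; filled points are called (adjusted p under 0.05) and black lines are medians. S phase genes have a median of -1.54 in H3.3 G34W K27R, -0.12 in H3.3 G34W K36R and 0.55 in H3.1 WT, beside member medians of -0.75, -1.76 and -1.65.

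The annotated transcript end was set beside these counts. Of the 49 tested members, 19 had transcripts that ran at least 100 bases past the stem-loop and 15 had shorter ones. A further 14 had no stem-loop match and 1 was not in the annotation. The 14 are not a class without a stem-loop, because some of their annotated transcripts may lack the 3′ end. In H3.3 G34W K27R against H3.3 G34W the called lower members were 2 of the 19, 4 of the 15 and 6 of the 14. In H3.3 G34W K36R they were 11, 6 and 7, and in H3.1 WT against H3.3 WT 8, 5 and 5. The median log2 fold changes of the 19, 15 and 14 were -0.75, -0.84 and -0.77 in the first comparison, -1.83, -1.76 and -1.81 in the second and -2.02, -0.30 and -1.24 in the third. No test of the difference between these kinds was made.

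H3.1 G34W was compared with H3.1 WT. No member was called, as no gene of all those tested was (0%), and 3 members had an unadjusted p under 0.05, Hist1h1b, Hist1h3d and the H2B gene Hist2h2bb. The median log2 fold change of the members was 0.33 against -0.003 over all genes. Hist1h3d was at 1032 and 1026 in H3.1 G34W against 572 and 323 (1.26 ± 0.29, adjusted p = 0.3), and Hist1h1b at 17.6 and 33.9 against 7.58 and 13.7 (1.18 ± 0.40, adjusted p = 0.302). These libraries did not overlap. Hist1h1c was at 1091 and 4159 in H3.1 G34W, below and above the H3.1 WT values, and Hist1h2bc at 845 and 1980. In these 2 genes replicate 2 was above both H3.1 WT libraries. In Hist1h2ao it was below them, at 3415 against 8224 in replicate 1 and 7704 and 11390 in H3.1 WT. S phase genes set replicate 2 apart as well, with a sum of 57647 against 157720 in replicate 1 and 165160 and 169420 in H3.1 WT, and their part was not tested. Without H3.1 G34W replicate 1, 6 members were called (12.2%, against 19.6% of all genes), and without H3.1 WT replicate 1, 1 was (2.04%, against 17.9%).

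The difference between the effect of G34W on H3.1 and on H3.3 was tested as an interaction. No member was called, against 0.197% of all genes, 3 had an unadjusted p under 0.05 (Hist1h1a, Hist1h2ae and Hist1h3d), and without H3.3 G34W replicate 2 the count was 2 (4.08%, against 6.28% of all genes). The median over the members was -0.36 against -0.021 over all genes, and it was 0.31 without H3.3 G34W replicate 1. Hist1h1a gave -1.88 ± 0.82 and Hist1h3d 1.14 ± 0.45 (adjusted p = 0.458 and 0.415).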

How the data were processed

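The 16 libraries of polyadenylated RNA come from 8 transgene groups of 2. Gene abundances come from RSEM 1.2.4 and the mm9 build, per the submitters' processing notes; the aligner, annotation and strand setting are not given in the sources used here. The deposited values are a normalised signal, expected counts times 1 constant per library, and 0 columns were left unmapped. Whole reads could not be recovered, so no count model was run. limma 3.58.1 (R 4.3.3, statmod 1.5.0, trend and robust) was fitted to log2(value + 1) of 12670 genes with a mean of at least 10, two-sided, with Benjamini-Hochberg adjustment over all of them, and was tested on simulated data. The H3.3 WT libraries, which differed by less than sampling noise by a chi-square test on 2772 genes whose values are whole reads (p = 0.93) but not on the full table (p = 5.12e-63), were averaged, which left 15 samples and 7 residual degrees of freedom. The 95% counting intervals (exact binomial) cover counting error only. Named genes were the 12 best measured members, 2 per class, and up to 6 called members each way in each comparison. Others were picked after their values were seen. The members, gene lists and tests were chosen with earlier results of these data known. A second deposited table with 180 of the genes was not used. Alternatives were pseudocounts of 0.5 and 5, other filters and scalings, a replicate block, other countings of close libraries, and leaving libraries out.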

Additional observations from a re-analysis of the deposited data

How the results depend on the processing

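The depth limits members of few reads, and reads shared between copies limit single members more than sums. Leaving out 1 library at a time gave 0 to 4 called members in H3.3 G34W against H3.3 WT, 0 to 2 in H3.3 G34R, 0 to 1 in H3.3 K27R, 7 to 23 in H3.3 G34W K27R against H3.3 G34W, 21 to 33 in H3.3 G34W K36R, 15 to 25 in H3.1 WT, 0 to 6 in H3.1 G34W, 0 to 2 in the interaction and 31 to 40 for any difference. A lone library of a group is then assumed to vary like the other groups. The share of all genes called moved with the setting too, as given beside the comparisons where a share is stated. The counts in this section stand without that share and are not results about the histone members. In H3.3 G34R a pseudocount of 5 gave 1, no filter 1, quantile normalization 2, eBayes without trend and robust 2, and only the groups compared 35. In H3.3 K27R no filter gave 1 and only the groups compared 16. A minimum mean of 50, which leaves 28 members tested, gave 5 in H3.3 G34W K27R, 17 in H3.3 G34W K36R and 24 for any difference. Only the groups compared gave 3 in H3.3 G34W K27R, 9 in H3.3 G34W K36R and 14 in H3.1 WT, and close pairs counted as 1 sample 1, 3 and 5, with 8 for any difference. H3.3 WT counted separately gave 3 in H3.3 G34W, 4 in H3.3 G34R and 2 in H3.3 K27R. The replicate numbers did not pair the samples (correlations from -0.265 to 0.0598 over 28 pairs of groups). A replicate block, with H3.3 WT counted separately, gave 3, 4 and 2 in those comparisons, and 13, 28 and 26 in the 3 with calls. None of the 24 named calls changed sign in the alternatives that tested it, and the signs of the other calls were not compared. The members' median moved to -1.59 in H3.3 G34W K27R without H3.3 G34W replicate 2 and -0.20 without replicate 1, to 0.14 and 1.16 in H3.3 G34W without replicates 1 and 2, and to -0.54 in H3.1 WT with quantile normalization. Of 24 named calls, 8 held with close pairs counted as 1 sample, 15 with only the groups compared and 24 with the block. The causes were not tested.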
